A study of Mus musculus with 39 samples.

Results

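The 40 genes described here build the DNA replication machinery or drive cell division. They were chosen by symbol out of the 56980 genes in each count file, as 13 genes of DNA replication and S phase, 5 cyclins and E2F transcription factors of the step from G1 into S phase, and 22 genes of G2 and mitosis. All 40 were found, and all 40 were among the 14658 genes with enough counts to be tested. RNA was sequenced from the scraped mucosa of the proximal small intestine of 39 female C57BL/6JRccHsd mice aged 42 days, 1 library per mouse, with the first 2 cm of duodenum left out. Pups were weaned at 21 days and then ate an assigned diet for 3 weeks, with free access to food, until they were killed in the fed state. The lactose diet held 32 en% lactose (en%, percent of dietary energy), the galactose diet 16 en% galactose with 16 en% glucose, and the glucose diet 32 en% glucose, with 13 mice on each. Starch at 32 en%, fructose at 3 en%, protein at 20 en% and fat at 20 en% were common to the diets, so lactose and galactose mice received the same sugars in bound and in free form.

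A cell enters S phase when cyclins D and E, with their kinases, release E2F factors from the retinoblastoma proteins. Cdc6 and Cdt1 load the MCM helicase ring onto origins, and Pcna then clamps the polymerases to DNA. Later, cyclins A2 and B with Cdk1 drive mitosis, for which many genes are transcribed with Foxm1, and the ubiquitin ligase APC/C, with Cdc20 and Ube2c, ends it. In the small intestine the dividing cells lie in the crypts, beside and above the stem cells and Paneth cells, whereas the enterocytes of the villus no longer divide.

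Promoters of the S phase and mitosis members are shown because members of each group are known to share short promoter elements, and because these 2 groups differed in how tightly their levels moved together. The sequences are the 250 bases before and 50 bases after a gene's start from RefSeq, build GRCm38.p6, which is an older build than the GRCm39 used for the counts, and 31 of the 40 members matched. Capitals mark CCAAT, the letters bound by the factor NF-Y, the letters TTTGAA or TTTAAA of the cell cycle genes homology region (CHR), and the E2F-type letters TTTCCCGC, TTTGGCGC, TTTCGCGC and TTCCCGCC, on either strand. TTTCCCGC and TTCCCGCC can overlap, and TTTAAA reads the same on both strands. Cdc6 lies at chr11:98907901-98908200, plus strand, Mcm2 at chr6:88898731-88899030, minus strand, Cenpa at chr5:30666636-30666935, plus strand, Cenpf at chr1:189688037-189688336, minus strand, and Bub1 at chr2:127831810-127832109, minus strand, each written 5′ to 3′ in the direction of transcription.
Cdc6: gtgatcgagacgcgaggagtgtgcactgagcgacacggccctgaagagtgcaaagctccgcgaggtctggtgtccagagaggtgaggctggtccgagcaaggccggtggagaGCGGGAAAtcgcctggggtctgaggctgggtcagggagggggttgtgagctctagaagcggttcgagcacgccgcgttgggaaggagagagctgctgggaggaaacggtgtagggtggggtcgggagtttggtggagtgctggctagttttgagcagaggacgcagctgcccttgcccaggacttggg
Mcm2: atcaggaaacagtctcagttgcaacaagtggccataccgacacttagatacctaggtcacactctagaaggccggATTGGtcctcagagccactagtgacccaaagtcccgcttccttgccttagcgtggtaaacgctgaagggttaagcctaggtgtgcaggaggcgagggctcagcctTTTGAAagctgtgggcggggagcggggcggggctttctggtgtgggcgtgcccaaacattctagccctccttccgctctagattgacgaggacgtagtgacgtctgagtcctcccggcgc
Cenpa: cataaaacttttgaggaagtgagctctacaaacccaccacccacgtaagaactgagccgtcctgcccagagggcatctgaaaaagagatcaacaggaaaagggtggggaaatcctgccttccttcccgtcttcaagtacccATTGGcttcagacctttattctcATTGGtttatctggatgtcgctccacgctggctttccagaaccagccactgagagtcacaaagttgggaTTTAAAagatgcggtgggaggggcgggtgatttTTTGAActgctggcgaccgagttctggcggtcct
Cenpf: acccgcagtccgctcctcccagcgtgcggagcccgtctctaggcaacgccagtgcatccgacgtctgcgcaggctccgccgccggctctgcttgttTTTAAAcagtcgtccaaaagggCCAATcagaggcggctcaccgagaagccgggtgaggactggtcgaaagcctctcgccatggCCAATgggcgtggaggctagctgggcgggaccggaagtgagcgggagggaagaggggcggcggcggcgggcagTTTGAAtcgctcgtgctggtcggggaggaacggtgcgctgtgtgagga
Bub1: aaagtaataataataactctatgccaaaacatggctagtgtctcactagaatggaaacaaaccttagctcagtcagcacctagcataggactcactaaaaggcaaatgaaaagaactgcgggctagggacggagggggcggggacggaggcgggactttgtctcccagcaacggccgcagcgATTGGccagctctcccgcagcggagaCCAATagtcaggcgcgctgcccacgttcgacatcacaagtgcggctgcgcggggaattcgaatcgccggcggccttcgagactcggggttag

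Cenpa and Cenpf each held 2 CCAAT and both CHR-type elements, Bub1 held 2 CCAAT, and Cdc6 held 1 E2F-type element, as the capitals show. Mcm2 had 1 CCAAT and TTTGAA, and Tyms, which the same choice of genes by p value picked, had none of these letters in its window. Among the mitosis members with a promoter entry, 15 of 17 held CCAAT, 11 of 17 held it 2 or more times and 15 of 17 held a CHR-type element. The shares over all 32851 promoter windows of this length were 37.4%, 11.7% and 27.6%. Of the 11 S phase members with an entry, 8 held CCAAT, 3 a CHR-type element and 7 an E2F-type element, which 1 of 17 mitosis members and 3.49% of all windows held. These matches describe letters in a window and are not measured binding sites.

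Each library had between 19685385 and 21350610 counts assigned to genes, with 10.1% to 15.7% of reads unassigned. Levels are given as CPM, counts relative to library size, scaled with TMM factors (trimmed mean of M values), so a level compares the same gene between mice and not 1 gene with another. Defining transcripts of the labelled tissue were present, as the 12 villus enterocyte markers summed to between 52739.8 and 90126.9 CPM in the 39 libraries, and all 13 crypt base stem cell markers were detected in every diet group. Library galactose 4 carried pancreatic transcripts (3097 CPM of Pnliprp1, against 0.2 to 105.0 CPM in all others). Without it, 3, 4 and 0 members passed where 2, 4 and 0 passed with all libraries (lactose against glucose, lactose against galactose, galactose against glucose). Libraries glucose 1, galactose 1 and galactose 2 were the highest in summed mitosis transcripts, and counts without these 3, a choice made after the values were seen, are given with each comparison. The numbers in the sample titles form a first run (1 to 18, 6 mice per diet) and a second run (49 to 69, 7 mice per diet), which the labels do not call batches. In RNA from whole scrapings, fewer cells of a type and less RNA per cell cannot be told apart.

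Mitosis transcripts varied between mice far more than replication transcripts did, and their mean was lowest with lactose. The 22 mitosis genes together measured 103 ± 51.2 CPM in lactose mice, 151 ± 107 CPM in galactose mice and 168 ± 114 CPM in glucose mice (SD, n = 13 each). They spanned 37.1 to 229 CPM with lactose (median 96.0), 30.8 to 406 CPM with galactose (median 121) and 50.2 to 468 CPM with glucose (median 133). The groups overlapped over most of their range, and the lactose group lacked the highest values seen in the other diets. Between the lowest library of all, galactose 3, and the highest, glucose 1, mitosis transcripts differed 15.2-fold.

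The 13 replication genes summed to 190 ± 25.1 CPM with lactose, 198 ± 42.3 CPM with galactose and 210 ± 49.4 CPM with glucose, and the libraries differed at most 2.51-fold. About as many of these counts came from Pcna as from the 12 others together, and Pcna alone varied little. The 5 G1/S genes summed to 18.2 ± 3.81 CPM with lactose, 25.9 ± 7.70 CPM with galactose and 24.3 ± 7.84 CPM with glucose. These sums are given as descriptions without a test.

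**Figure D1:**
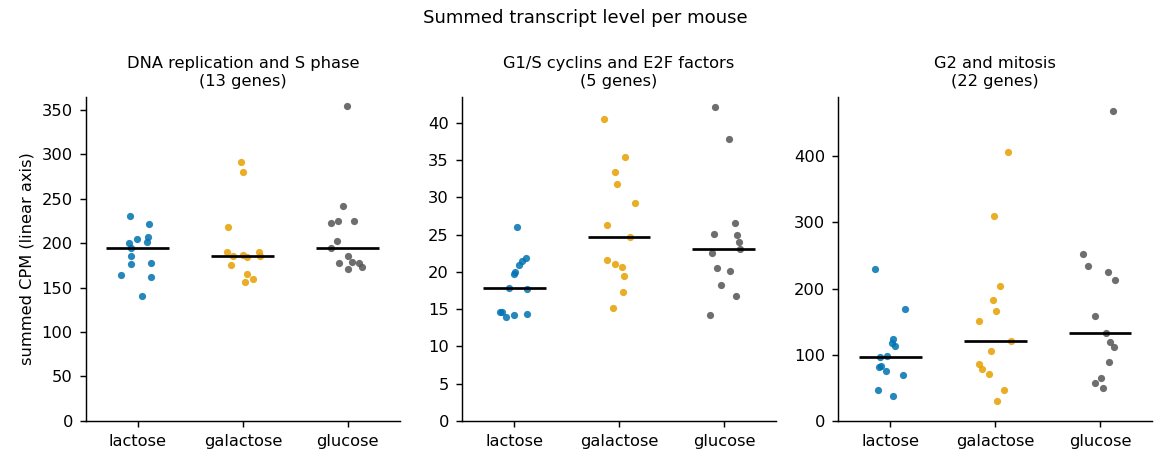
Summed CPM (vertical axes, linear, from 0) of the 3 groups of genes by diet, 1 point per mouse (n = 13 per diet) and a line at the median. The mitosis sums spread from 30.8 to 468 CPM and the lactose mice stay at or below 229 CPM, while the replication sums stay between 141 and 354 CPM.

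Lactose against glucose compared the diet with galactose bound to glucose with the diet without galactose. Members were mostly lower with lactose, but few single genes passed the test. Of the 40 members, 39 had a log2 fold change below 0, with a median of -0.62, against -0.03 for all tested genes. Since the members vary together across mice, as shown further on, 39 equal signs are not 39 separate observations. The edgeR quasi-likelihood test with Benjamini-Hochberg adjustment over all genes called 2 members, Ccne2 and Cenpa, both lower, where it called 15.6% of all tested genes, 6.84% as lower and 8.73% as higher. At an unadjusted p under 0.05 there were 21 members, 20 of them lower, against 31.7% of all genes. The count of called members was 0 in the first run, where 0.122% of all genes were called, and 4 in the second, where 13.7% were. It was 9 with library totals in place of TMM, which called 24.1% of all genes and moved their median to -0.13. DESeq2 called 6 (5 lower and Mcm2 higher), where it called 18.4% of all genes, 7.4% as lower and 11% as higher. Without the 3 libraries highest in mitosis transcripts the 2 called members were Ccne2, lower, and Mcm2, higher (13.7% of all genes were called), and the median of the members was -0.39.

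Lactose against galactose compared the same sugars bound and free. Here 37 of 40 members were below 0, with a median log2 fold change of -0.49 against -0.02 for all tested genes. EdgeR called 4 members, Ccne2, Mcm4, Cdc6 and Cenpf, all lower, where it called 30.9% of all tested genes and 15% as lower. At an unadjusted p under 0.05 there were 9 members, all lower, against 40.9% of all genes. The count was 2 without the 3 libraries highest in mitosis transcripts, namely Ccne2 (log2 -1.09) and Mcm4 (log2 -0.35), where 27.0% of all genes were called, and the median of the members was then -0.15. Each run alone gave 1 member, in both cases Ccne2, and called 6.47% of all genes in the first and 20.0% in the second. Library totals gave 10 members, called 41.1% of all genes and moved their median to -0.16.

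Galactose against glucose, in which part of the glucose is replaced by free galactose, gave no called member in edgeR, where it called 4.07% of all tested genes, 2.87% as lower and 1.21% as higher. DESeq2 called 0 members as well, and 5.7% of all genes, 2.2% as higher. No member was under 0.05 without adjustment in edgeR, against 20.6% of all genes, or in DESeq2, against 21% of all genes. The median log2 fold change of the members was -0.10, and 32 of 40 were below 0. The direction was not the same in both runs, with 9 of 40 members below 0 in the first run (median 0.11) and 36 of 40 in the second (median -0.30). As the members vary together, these signs are not 40 separate observations. No member had a diet by run interaction in this comparison (lowest edgeR adjusted p = 0.960), so a difference between the runs was not shown. Without the 3 libraries highest in mitosis transcripts edgeR called 0 members, and the median was -0.23. In a single test for any difference between the diets, edgeR called 3 members (Ccne2, Mcm4 and Cenpa) and 30.3% of all genes, with 8 members and 43.2% of all genes under 0.05 without adjustment. DESeq2 called 5 members and 33.2% of all genes, with 9 members and 44.2% of all genes under 0.05 without adjustment. Any pair of these comparisons shares the mice of 1 diet, so their values are not independent.

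**Figure D2:**
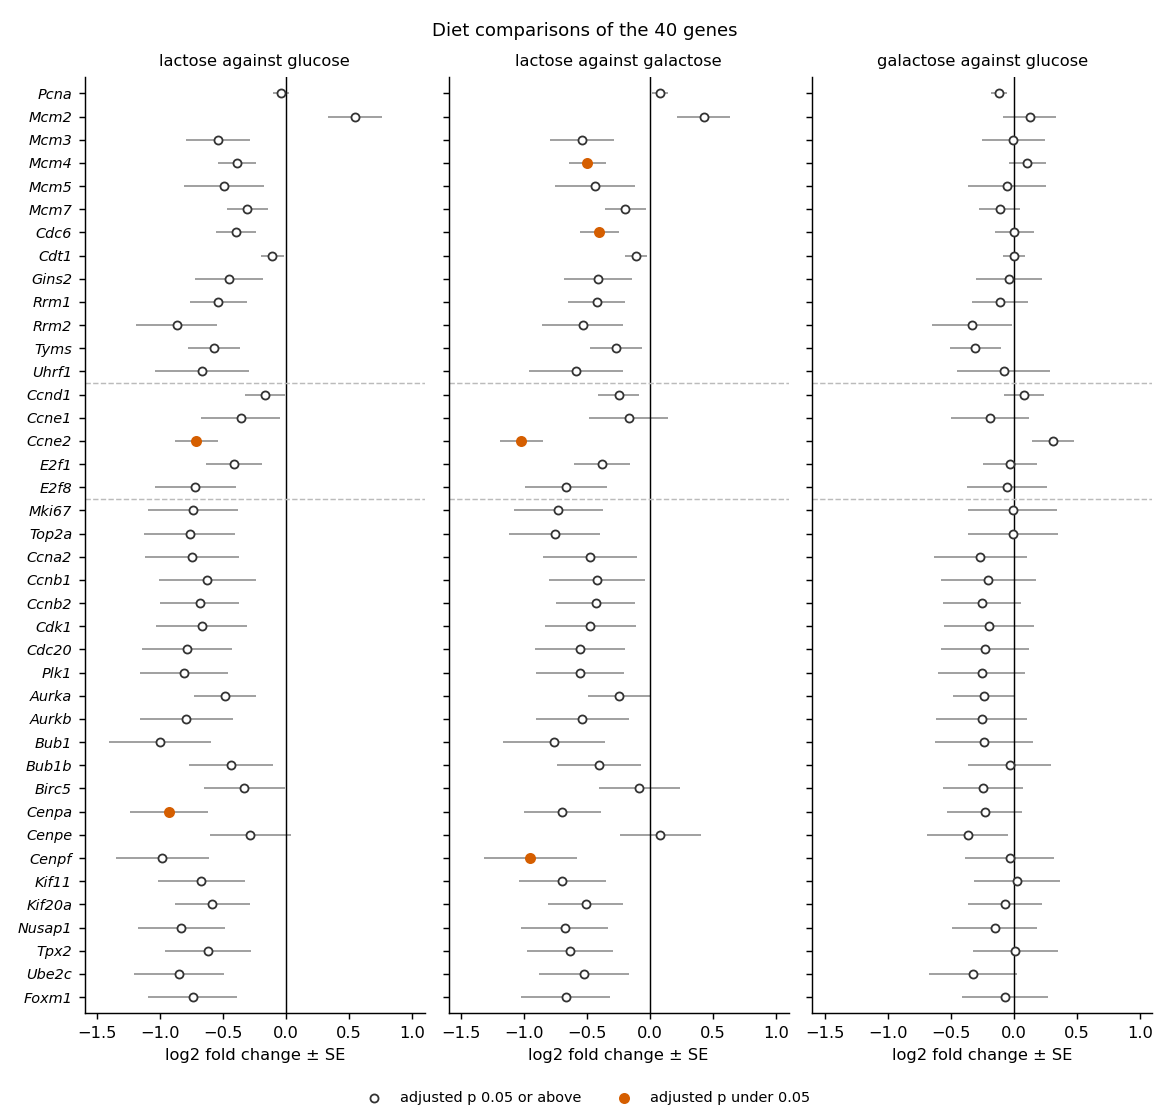
Log2 fold change (horizontal axes) with its SE for the 40 genes in the 3 comparisons, filled where the edgeR adjusted p was under 0.05 and open elsewhere, with dashed lines between replication, G1/S and mitosis genes. In the lactose panels nearly all points lie left of 0 and Mcm2 lies to the right, and the filled points are 2 for lactose against glucose, 4 for lactose against galactose and 0 for galactose against glucose.

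Ccne2 (ENSMUSG00000028212) encodes cyclin E2, which activates Cdk2 at the entry to S phase. It ranged from 2.10 to 5.88 CPM in lactose mice (median 3.29), from 3.64 to 11.4 CPM in galactose mice (median 6.58) and from 2.94 to 8.58 CPM in glucose mice (median 5.72). The lactose group lay at the low end with partial overlap, and all 13 lactose mice were below the galactose mean. Ccne2 fell with lactose by 1.02 on the log2 scale against galactose (SE 0.17, edgeR adjusted p = 1.91e-05). Against glucose it fell by 0.71 (SE 0.17, edgeR adjusted p = 0.00413, 12 of 13 mice below the glucose mean). Galactose against glucose was not called (log2 0.31, SE 0.17, edgeR adjusted p = 0.292). Diet accounted for 48.9% of the variance of its log2 level, the most of any member, where the median over members was 7.56%.

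The lower Ccne2 level with lactose against galactose was also called in each run, with log2 -0.85 (edgeR adjusted p = 0.0345) in the first and -1.19 (edgeR adjusted p = 0.00174) in the second. Against glucose the log2 values were -0.69 (edgeR adjusted p = 0.311) and -0.74 (edgeR adjusted p = 0.0494) in the same runs. Exons of Ccne2 overlap those of Ints8, a subunit of the Integrator complex, on the opposite strand by 474 bases (GENCODE M21). The strand setting of the counting is not given in the sources used here, so reads from the shared bases cannot be assigned. Ints8 measured 18.7 ± 2.55 CPM with lactose, 17.5 ± 1.68 CPM with galactose and 18.4 ± 2.14 CPM with glucose, with log2 0.09 for lactose against galactose (SE 0.07, edgeR adjusted p = 0.289).

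The other G1/S members gave no call. Cyclin E1 (Ccne1), the close relative of cyclin E2, measured 0.951 ± 0.507 CPM with lactose, 1.06 ± 0.556 CPM with galactose and 1.22 ± 0.970 CPM with glucose, with 5 to 92 counts per library. Ccnd1, cyclin D1, which links growth signals to the cycle, measured 9.53 ± 1.84 CPM, 11.3 ± 3.41 CPM and 10.7 ± 4.14 CPM in lactose, galactose and glucose mice. Its log2 fold changes lay between -0.25 and 0.08. E2f1, an activator of replication genes, had log2 -0.41 for lactose against glucose (SE 0.22, edgeR adjusted p = 0.189), and E2f8, a repressor of the same family, -0.72 (SE 0.32, edgeR adjusted p = 0.120).

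Of the 13 replication genes, Mcm4 and Cdc6 were called for lactose against galactose, both lower, a share close to the 15% of all genes called as lower there. Mcm4 (ENSMUSG00000022673), a subunit of the MCM2-7 helicase, ranged from 5.26 to 9.78 CPM with lactose (median 6.34), from 6.20 to 16.3 CPM with galactose (median 8.98) and from 5.88 to 17.3 CPM with glucose (median 8.06). Of the lactose mice 12 of 13 lay below the galactose mean, and the groups overlapped. Mcm4 fell by 0.50 against galactose (SE 0.15, edgeR adjusted p = 0.00927), while lactose against glucose gave -0.39 (SE 0.15, edgeR adjusted p = 0.0643). Cdc6 (ENSMUSG00000017499) ranged from 0.923 to 3.51 CPM with lactose (median 2.41), from 1.97 to 4.31 CPM with galactose (median 2.85) and from 1.86 to 4.83 CPM with glucose (median 2.79). It fell by 0.40 against galactose (SE 0.16, edgeR adjusted p = 0.0459), with 12 of 13 lactose mice below the galactose mean, and it was not called without the 3 libraries highest in mitosis transcripts (log2 -0.32, adjusted p = 0.110). Neither gene was called within a single run.

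Mcm2, another subunit of the same helicase, stood apart from its partners. Its levels spanned 13.5 to 39.8 CPM with lactose (median 22.5), 8.05 to 32.7 CPM with galactose (median 16.6) and 5.17 to 29.0 CPM with glucose (median 14.6). The lactose mice were the higher ones here, with 10 of 13 above the glucose mean. The difference from glucose did not pass in edgeR (log2 0.55, SE 0.21, adjusted p = 0.0718), and it passed in DESeq2 (log2 0.56, adjusted p = 0.0443) and in edgeR without the 3 libraries highest in mitosis transcripts (log2 0.65, adjusted p = 0.0302). It was 0.15 in the first run and 0.90 in the second, neither of them called. Lactose against galactose gave 0.42 (SE 0.21, edgeR adjusted p = 0.128). Mcm3, Mcm5 and Mcm7 had log2 values of -0.55, -0.49 and -0.31 for lactose against glucose, none of them called.

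Of the genes that make DNA precursors, Tyms, thymidylate synthase, measured 4.60 ± 1.25 CPM with lactose, 5.54 ± 2.66 CPM with galactose and 6.85 ± 2.82 CPM with glucose. It lay just outside the threshold for lactose against glucose (log2 -0.57, SE 0.21, edgeR adjusted p = 0.0518, 13 of 13 mice below the glucose mean). Rrm2 and Rrm1, the subunits of ribonucleotide reductase, gave log2 -0.87 (SE 0.32, edgeR adjusted p = 0.0575) and -0.54 (SE 0.22, edgeR adjusted p = 0.0903). DESeq2 called Tyms and Rrm2 (adjusted p = 0.0365 and 0.0466). Pcna, the sliding clamp, was the steadiest member, at 99.3 ± 14.1 CPM with lactose, 93.9 ± 8.94 CPM with galactose and 102 ± 10.1 CPM with glucose. Its highest library was 1.61-fold above its lowest, and the 95% interval of its log2 difference between lactose and glucose was -0.17 to 0.09. Cdt1, which loads the helicase with Cdc6, was similarly even at 12.6 ± 2.00, 13.6 ± 2.24 and 13.6 ± 2.06 CPM in lactose, galactose and glucose mice.

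The mitosis genes had a median log2 fold change of -0.74 for lactose against glucose and -0.55 for lactose against galactose. In each comparison 1 of 22 was called, as lower, where 6.84% and 15% of all tested genes were called as lower. The median SD of the mitosis genes between mice of a diet was 0.94 (log2 CPM), against 0.56 for the replication genes. Cenpa (ENSMUSG00000029177), the histone H3 variant that marks centromeres, ranged from 1.28 to 8.33 CPM with lactose (median 3.39), from 1.97 to 17.1 CPM with galactose (median 5.37) and from 2.94 to 20.0 CPM with glucose (median 5.60). It fell by 0.93 with lactose against glucose (SE 0.31, edgeR adjusted p = 0.0335, 12 of 13 mice below the glucose mean). The call was lost without the 3 libraries highest in mitosis transcripts (log2 -0.73, adjusted p = 0.0540) and with a block for every 3 neighbouring mice by number (log2 -0.74, adjusted p = 0.0760). Cenpf (ENSMUSG00000026605), a large protein of the outer kinetochore, ranged from 0.820 to 3.34 CPM with lactose (median 1.40), from 0.577 to 9.89 CPM with galactose (median 2.46) and from 0.799 to 9.28 CPM with glucose (median 2.58). It fell by 0.95 against galactose (SE 0.37, edgeR adjusted p = 0.0447), which without the same 3 libraries was -0.47 (adjusted p = 0.287). Against glucose Cenpf was at -0.98 (SE 0.37, edgeR adjusted p = 0.0603).

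Mki67, the Ki-67 antigen used to stain dividing cells, was not called in any comparison. It ranged from 4.10 to 28.9 CPM with lactose (median 10.2), from 3.94 to 60.4 CPM with galactose (median 16.0) and from 5.84 to 51.6 CPM with glucose (median 17.2). Lactose against glucose gave log2 -0.74 with a 95% interval of -1.44 to -0.04 (edgeR adjusted p = 0.147), and galactose against glucose -0.01 with an interval of -0.70 to 0.68 (edgeR adjusted p = 0.991). Top2a, the topoisomerase that untangles chromosomes, was close to Mki67 with -0.77 and -0.01. Bub1, a kinase of the spindle checkpoint, had the lowest value of all members for lactose against glucose (log2 -1.001, SE 0.41, edgeR adjusted p = 0.0829), on 3 to 158 counts per library. The spindle protein Nusap1 (-0.83) and Ube2c, which supplies ubiquitin to APC/C (-0.85), were not called either (edgeR adjusted p = 0.0915 and 0.0943). All 22 mitosis members were below 0 in this comparison, between -1.001 and -0.28.

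**Figure D3:**
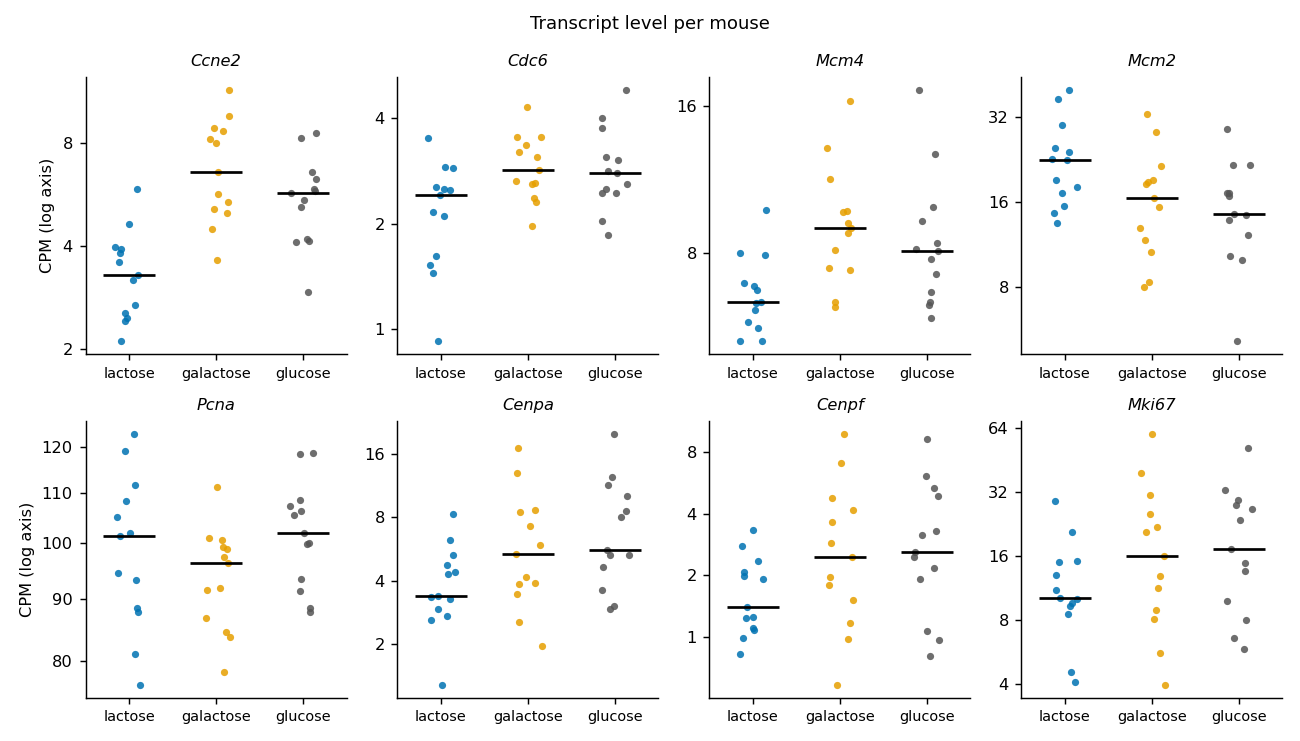
CPM per mouse (vertical axes, log scale) of 8 genes by diet, 1 point per mouse (n = 13 per diet) and a line at the median. Ccne2 is low in lactose mice (median 3.29 CPM), Mcm2 is higher there (median 22.5 CPM), Pcna spans only 76.4 to 123 CPM, and Cenpa, Cenpf and Mki67 spread widely within every diet.

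Across the 39 libraries most of the genes varied together. With diet means subtracted from log2 CPM, the 231 pairs of mitosis members had a median Pearson r of 0.95 (0.76 to 0.99), against a median of -0.0033 over all pairs of tested genes, where 5% of pairs exceeded 0.45. The median was 0.97 in the first run and 0.91 in the second, and it was 0.93 without the 3 libraries highest in mitosis transcripts. Replication members correlated with mitosis members at a median r of 0.86, and with each other at 0.60. These are descriptions over libraries that the genes share, with no test.

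How closely a gene followed the mitosis genes differed between genes of the same step. Of the 40 members, 32 had a median r of at least 0.8 with the mitosis members and 26 of at least 0.9. Mcm5 (0.91), Mcm3 (0.89) and Mcm4 (0.86) followed it, as did Rrm1 (0.94), Tyms (0.91) and Uhrf1 (0.94), the last of these a partner of the maintenance DNA methyltransferase. Mcm7 (0.77), E2f1 (0.69), Ccnd1 (0.66) and Cdc6 (0.54) followed it less closely. Only Cdt1 (0.30), Pcna (0.22), Mcm2 (0.12) and Ccne2 (-0.17) were below 0.5. Mcm2 had r of 0.08 with Mcm3, 0.13 with Mcm4, 0.13 with Mcm5 and 0.43 with Mcm7, where Mcm3 and Mcm5 had 0.95 with each other. The lowest counts in any library were 1553 for Pcna, 190 for Cdt1, 107 for Mcm2 and 41 for Ccne2. Cyclins E1 and E2 parted as well, with 0.80 for Ccne1 and -0.17 for Ccne2.

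**Figure D4:**
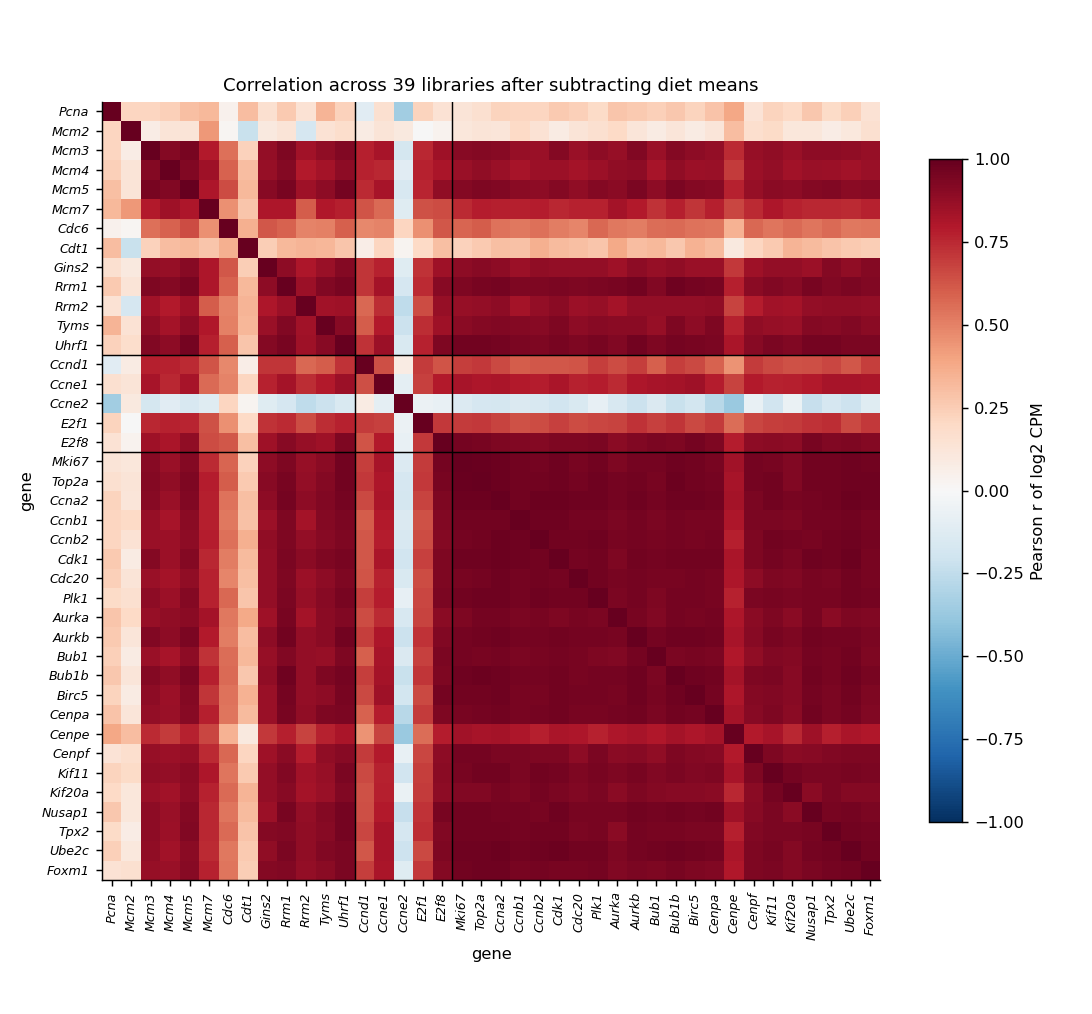
Pearson r of log2 CPM across 39 libraries after subtracting diet means (colour, from blue at -1 to red at 1) between the 40 genes (both axes), with lines between replication, G1/S and mitosis genes. The mitosis genes form a solid dark block (median r 0.95), and Pcna, Mcm2, Cdt1 and Ccne2 stand out as pale rows and columns.

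Of 12 gene pairs tested by permutation (100000 resamples, two-sided, Benjamini-Hochberg adjusted over the 12), Mki67 and Top2a had r = 0.99 and Spearman rho = 0.98 (permutation adjusted p = 1.71e-05 and 2e-05, the smallest these resamples allow, n = 39). Leaving out the 2 libraries farthest from the Mki67 median gave r = 0.99, and the first and second runs gave 0.9957 and 0.97. Mcm5 followed Mki67 (r = 0.92, rho = 0.91, permutation adjusted p = 1.71e-05 and 2e-05), at 0.94 and 0.90 in the runs and 0.91 without the farthest 2. Foxm1 followed Ccnb1, cyclin B1, at r = 0.95 and rho = 0.94 (permutation adjusted p = 1.71e-05 and 2e-05), with 0.97 and 0.85 in the runs and 0.93 without the farthest 2. E2f1 and Mcm5 had r = 0.76 and rho = 0.75 (permutation adjusted p = 1.71e-05 and 2e-05), with 0.82 and 0.75 in the runs and 0.71 without the farthest 2. Ccnd1 and Mki67 had r = 0.69 and rho = 0.66 (permutation adjusted p = 1.71e-05 and 3.43e-05), with 0.80 and 0.58 in the runs and 0.66 without the farthest 2.

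Pcna and Mki67 had r = 0.13 and rho = 0.04 (permutation adjusted p = 0.486 and 0.811), with 0.17 and -0.04 in the runs and 0.09 without the farthest 2. Mcm5 and Mcm2 had r = 0.13 and rho = -0.04 (permutation adjusted p = 0.486 and 0.811), and -0.10 without the farthest 2. In the first run their r was 0.50 (permutation adjusted p = 0.0443), and 0.18 without libraries galactose 1 and glucose 1. In the second run it was -0.26 (permutation adjusted p = 0.336). Whether the relation of the 2 helicase subunits differed between the runs was not tested.

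Most markers of crypt cells moved with the mitosis genes. Olfm4, a marker of crypt base stem cells in mouse, ranged from 0.7 to 285 CPM between libraries and had r = 0.93 and rho = 0.94 with Mki67 (permutation adjusted p = 1.71e-05 and 2e-05). Its r was 0.94 and 0.90 in the runs and 0.95 without the farthest 2 libraries. Lyz1, lysozyme of Paneth cells, which do not divide, had r = 0.90 and rho = 0.90 with Mki67 (permutation adjusted p = 1.71e-05 and 2e-05), with 0.94 and 0.84 in the runs and 0.89 without the farthest 2. Over whole lists the median r with Mki67 was 0.82 for 13 stem cell markers and 0.88 for 11 Paneth markers. The stem cell markers ran from -0.19 for Rnf43 to 0.93 for Olfm4, the highest of them. The Paneth markers ran from 0.15 for Pnliprp2 to 0.90 for Defa17. The Paneth list summed to 115 to 1273 CPM with lactose, 75.2 to 2878 CPM with galactose and 168 to 3772 CPM with glucose, and no marker of it was at 0 in a diet group. The part of these cells in the diet differences of the members was not tested.

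With the mean log2 level of the Paneth list as a covariate, a fit added after the data were seen, edgeR called 21 members for lactose against glucose and 11 for lactose against galactose, all lower, and 0 for galactose against glucose. The shares over all genes in that fit were 19.0%, 32.9% and 5.57%. The members' median was then -0.50 for lactose against glucose, against -0.62 without the covariate, and 14 of 22 mitosis genes were called as lower. Of the Paneth markers themselves, lactose against glucose called 0 of 11 (median log2 -0.64) and lactose against galactose 1 of 11, Mmp7, as lower (median -0.85). Because these markers also moved with Mki67 (median r 0.88), the fit cannot tell a diet difference of the members apart from one in crypt cells. The reason for the added calls was not tested.

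Villus and immune markers went with the mitosis genes less or inversely. Apoa4, an apolipoprotein of villus enterocytes, had r = -0.57 and rho = -0.65 with Mki67 (permutation adjusted p = 3e-04 and 4.5e-05), with -0.65 and -0.46 in the runs and -0.58 without the farthest 2. The 12 villus markers had a median r of -0.40 with Mki67, from -0.63 for Apoa1 to 0.04 for Nt5e. Ptprc, the leukocyte antigen CD45, had r = -0.36 and rho = -0.33 (permutation adjusted p = 0.0298 and 0.0544), with -0.54 and -0.25 in the runs and -0.24 without the farthest 2 libraries. Its r was -0.18 with library totals and -0.26 without the 3 libraries highest in mitosis transcripts (permutation adjusted p = 0.309 and 0.164). It was -0.33 with the means of every 3 neighbouring mice by number also subtracted (permutation adjusted p = 0.0467). The 8 markers of T and intraepithelial lymphocytes had a median r of -0.44 with Mki67, from -0.50 for Cd3e to -0.36 for Ptprc. Mzb1, a plasma cell gene, had r = 0.09 and rho = 0.06 (permutation adjusted p = 0.590 and 0.811), with 0.04 and 0.10 in the runs. Its level was only 0 to 0.568 CPM, so this pair says little about plasma cells. The 5 tested plasma cell markers had a median r of 0.05 with Mki67, from -0.17 for Xbp1 to 0.08 for Jchain. The 10 tested B cell and germinal centre markers had a median r of -0.05 with Mki67 and gave no call in any comparison, though dividing B cells express the same cycle genes.

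**Figure D5:**
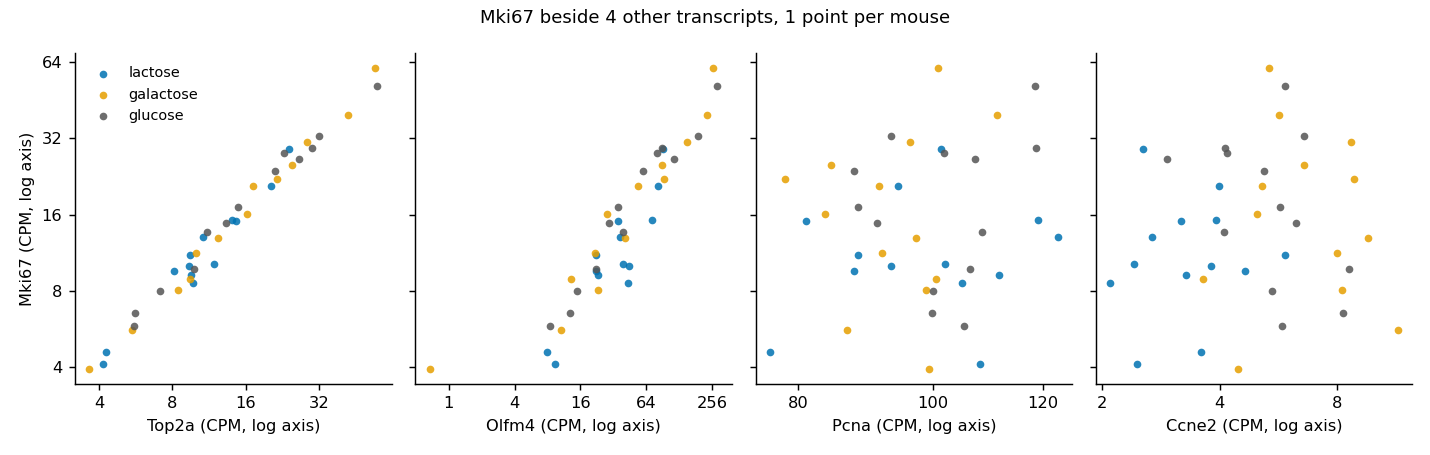
Mki67 (vertical axis, CPM, log scale) against Top2a, Olfm4, Pcna and Ccne2 (horizontal axes, CPM, log scale), 1 point per mouse, coloured by diet. The points form a line for Top2a (r 0.99 after subtracting diet means) and Olfm4 (0.93), and a cloud for Pcna (0.13) and Ccne2 (-0.14).

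The genes outside the 40 whose levels were most like theirs were ranked by r with the mean scaled level of a group over the 39 libraries (14618 genes, diet means subtracted). Closest to the mitosis group were Mad2l1 (0.98), Cdca3, Pbk, Spc24, Kif22, Racgap1, Iqgap3 and Fads2 (0.97), of which the first 6 were on a separate list of mitosis genes. Closest to the replication group were Ptma (0.96), Rcc2 (0.96), Impdh2 (0.96), Gar1, Tacc3, Kif22, Ncaph and Hmgb2 (0.94). At the other end were Ticam1 (-0.87), Plekhg6, Cdhr2 and Dnajb12 (-0.78) for replication, and C130074G19Rik (-0.82), Nr1h2, Espn and Ticam1 (-0.80) for mitosis. These ranks carry no test.

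Further genes of the same pathways were listed apart from the 40. Where a comparison of 2 diets called 5 or fewer genes of such a list, they are named after their values were seen. Of 48 other replication genes, lactose against glucose called 2, Rpa1 and Rpa3, both lower (median log2 -0.28). It called 15.6% of all genes, 6.84% as lower. Lactose against galactose called 4 higher and 3 lower, beside 30.9% of all genes called. Galactose against glucose called Mcm10 as lower, beside 4.07% of all genes called. Mcm10, which helps to start the helicase, measured 10.6 ± 1.80 CPM with lactose, 8.61 ± 2.07 CPM with galactose and 11.3 ± 2.21 CPM with glucose (log2 0.30 for lactose against galactose, edgeR adjusted p = 0.0397, and -0.39 for galactose against glucose, edgeR adjusted p = 0.0407). Pola2, a subunit of the polymerase that lays primers, was higher with lactose against galactose (log2 0.25, edgeR adjusted p = 0.00297), and Rfc1, of the complex that loads Pcna, was lower (-0.36, edgeR adjusted p = 6.58e-04).

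Beside 15.6% of all genes called for lactose against glucose, 6.84% as lower, 2 of 56 other mitosis genes were called there, both lower. They were Ndc80, which binds microtubules at the kinetochore (0.697 ± 0.365 CPM with lactose against 1.47 ± 0.968 CPM with glucose, log2 -1.07, SE 0.37, edgeR adjusted p = 0.0394), and the phosphatase Cdc25c (-1.07, SE 0.36, edgeR adjusted p = 0.0394). Ndc80 was also lower against galactose (-1.14, SE 0.36, edgeR adjusted p = 0.0155), and it was the only gene of the list called there, beside 30.9% of all genes. Galactose against glucose called Bub3 as lower, beside 4.07% of all genes called. The list's median was -0.61 for lactose against glucose, close to the -0.62 of the 40 members.

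Of 24 cyclins, kinases and E2F or DREAM factors outside the 40, 7 were lower and 1 higher for lactose against glucose, beside 15.6% of all genes called. For lactose against galactose 6 were lower and 2 higher, a share near the 30.9% of all genes called. Cyclin D3 (Ccnd3) measured 26.3 ± 3.01 CPM with lactose, 31.2 ± 2.66 CPM with galactose and 31.0 ± 3.71 CPM with glucose, and it fell by 0.24 against glucose (SE 0.06, edgeR adjusted p = 0.00808) and by 0.25 against galactose (SE 0.06, edgeR adjusted p = 0.00259). All 13 lactose mice lay below both other means. Lin52, a subunit of the DREAM and MuvB complexes that bind the CHR, was higher with lactose, at 9.58 ± 1.496 CPM against 6.56 ± 0.899 CPM with galactose (log2 0.55, SE 0.09, edgeR adjusted p = 2.5e-05) and 7.38 ± 1.45 CPM with glucose (log2 0.38, SE 0.09, edgeR adjusted p = 0.00509). E2f3, an activator, was higher with galactose against glucose (28.4 ± 3.14 CPM with galactose against 21.1 ± 3.81 CPM with glucose, log2 0.43, SE 0.09, edgeR adjusted p = 0.00471).

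CDK inhibitors with pocket proteins, and p53 targets, formed 2 further lists. For lactose against glucose they were called about as often as genes in general. The calls were 1 of 9 CDK inhibitors and pocket proteins and 2 of 14 p53 targets, beside 15.6% of all tested genes. Of the first list, Rbl1, the pocket protein p107, was higher with lactose against glucose (log2 0.22, edgeR adjusted p = 0.0203), and Cdkn1c, the inhibitor p57, was lower with lactose against galactose (-0.29, edgeR adjusted p = 0.0348). Of the p53 targets, Pmaip1 was higher and Perp lower in lactose against glucose. Galactose against glucose called Bax and Sesn1, 1 of them higher and 1 lower, beside 4.07% of all genes called. Lactose against galactose called Bax, Mdm2, Pmaip1 and Sesn1, 3 of them higher and 1 lower, where 30.9% of all genes were called. Pmaip1, the death protein Noxa, was higher with lactose against glucose (91.6 ± 20.2 CPM with lactose against 67.6 ± 15.1 CPM with glucose, log2 0.44, SE 0.12, edgeR adjusted p = 0.0106), and Bax was higher with lactose against galactose (0.52, SE 0.09, edgeR adjusted p = 2.79e-05).

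Of 13 stem cell markers, 4 were lower for lactose against glucose (Lgr5, Axin2, Cdca7 and Ephb3), beside 6.84% of all genes called as lower. Against galactose 5 were lower, with Rnf43 added, beside 15% of all genes. Lgr5, the receptor that marks these cells, measured 2.23 ± 0.780 CPM with lactose, 4.67 ± 0.824 CPM with galactose and 4.37 ± 0.788 CPM with glucose, and it fell by 1.07 and 0.97 against galactose and glucose (SE 0.14 each, edgeR adjusted p = 3.19e-07 and 1.32e-05). Olfm4, at 40.5 ± 26.2, 77.9 ± 85.2 and 75.1 ± 80.9 CPM in lactose, galactose and glucose mice, was not called. All 8 smooth muscle markers were lower with lactose against galactose (median -1.06), 3 of 5 plasma cell markers were higher with lactose in both comparisons, and the part of these tissues in the results for the members was not tested.

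The diet differences of the members were set against the 2 runs in 1 model. No member had a diet by run interaction in edgeR in any of the 3 comparisons (lowest adjusted p = 0.766), and neither did any of the 14658 genes. At an unadjusted p under 0.05 there were 0, 2 and 0 members for lactose against glucose, lactose against galactose and galactose against glucose, and 894, 902 and 634 of all genes. For Ccne2 the interaction, the second run's log2 fold change minus that of the first, was -0.34 (SE 0.35) for lactose against galactose, and for Cenpa 0.07 (SE 0.62) for lactose against glucose. An interaction of the size of the diet differences themselves could thus not be told from 0 for the mitosis genes.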

How the data were processed

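The authors deposited 1 table of raw read counts per gene for each mouse, made with STAR and HTSeq on GRCm39 after FastQC, per the submitters' processing notes, which name no versions. Strand setting and annotation release are not given in the sources used here. Of 56980 identifiers 52073 matched a symbol, and 5 summary lines per file stayed out of all totals. No 2 files held identical counts, and each mouse was taken as 1 replicate. Genes passing filterByExpr were tested in edgeR 4.0.16 (R 4.3.3) with TMM factors and quasi-likelihood F tests on 1 model of 3 diet means, two-sided, adjusted over all 14658 tested genes, with 0.05 as threshold. The SE is the log2 fold change over the square root of F, and its 95% interval uses 1.96 SE. Log2 CPM used a prior count of 2. DESeq2 1.42.0 was an alternative, beside 10 others listed in advance and 2 added after seeing the data. Named members are Mki67, Pcna, Ccnd1 and up to 6 per group with the smallest p of the any-diet test, and up to 3 genes per other list by the same p, and other genes were named after their values were seen. The procedures were tested on simulated data. The 40 members, the lists and the pairs were chosen with earlier results of these data known.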

Additional observations from a re-analysis of the deposited data

How the results depend on the processing

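Against 2 called members for lactose against glucose, 9 were called with library totals, 1 without a filter, 1 with a block for every 3 neighbouring mice by number, 0 and 4 in the first and second runs (titles 1 to 18 and 49 to 69), 4 from the 2 diets alone, 6 with DESeq2 and 21 with the Paneth list as a covariate. Against 4 for lactose against galactose, 10 were called with library totals, 2 without a filter, 1 within each run, 2 without the 3 libraries highest in mitosis transcripts and 11 with the Paneth covariate. Against 3 for any diet, 7 were called with library totals, 0 in the first run, 5 with DESeq2 and 18 with the Paneth covariate. The share of all genes called moved as well. For lactose against glucose it was 15.6%, and 24.1% with library totals, 5.34% without a filter, 20.6% with the block, 0.122% and 13.7% in the runs, 15.4% from the 2 diets alone, 18.4% with DESeq2 and 19.0% with the Paneth covariate. For lactose against galactose it was 30.9%, and 41.1% with library totals, 13.6% without a filter, 6.47% and 20.0% in the runs, 27.0% without the 3 libraries and 32.9% with the Paneth covariate. For any diet it was 30.3%, and 40.9%, 3.47%, 33.2% and 34.1% under the choices listed. The cause was not tested, though each run holds fewer mice. No call came for galactose against glucose under any of these choices, and no listed result changed sign while called. Of 741 values of named members over all alternatives, 686 kept direction and side of the threshold, 39 gained a call and 16 lost one, and of 84 for gene pairs 76, 3 and 5. No paired analysis was possible because the labels give no replicate numbers shared between diets, so neighbouring title numbers, 1 mouse per diet, formed the block. Low counts limit Bub1 and Ccne1 most, with as few as 3 and 5 counts in a library.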
